A study of Mus musculus with 3 samples.

Results

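The genes described here are 10 components of bone morphogenetic protein (BMP) signaling, namely the ligands *Bmp2*, *Bmp4*, *Bmp5*, and *Bmp7*, the secreted antagonists *Chrd* and *Nog*, the receptors *Bmpr1a* and *Bmpr2*, and the intracellular effectors *Smad1* and *Smad5*. They were chosen by gene symbol, and all 10 were found among the 30854 symbols measured on 3 Illumina Mouse-6 arrays. The RNA of each array came from wild-type mouse embryos at the early headfold (EHF) stage, from which the extraembryonic part had been cut away. The 3 arrays, replicates 1, 2, and 3, form a single untreated group, so the comparison that the design allows is of each gene with the background of its own array. The sample labels name the strain as Cd-1 and an RNeasy kit for the RNA, whereas the study's methods name ICR and TRIzol, and neither settles whether an array holds 1 embryo or a pool. The p-values of the limma test given here therefore measure only the spread between these arrays, which may be technical, and a detection p-value compares a signal with the negative controls of 1 array.

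BMPs are secreted ligands of the TGF-beta superfamily. They bring together type I receptors, such as BMPR1A, and type II receptors, such as BMPR2, which then phosphorylate SMAD1 and SMAD5 so that these enter the nucleus with SMAD4 and act on target genes such as the *Id* genes. Chordin, encoded by *Chrd*, and noggin, encoded by *Nog*, bind BMPs outside the cell and keep them from their receptors, and in the gastrulating mouse embryo the ligands are known from the extraembryonic ectoderm and mesoderm and the lateral and ventral tissues, and these antagonists from the node and its derivatives.

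Promoter windows are shown for 3 of the genes, a ligand measured above background, a ligand that was not, and a receptor measured above background, to show how far their base composition differs. Each line holds the 250 bases before the first start site in NCBI RefSeq, on the gene's own strand, with CG dinucleotides in capitals. The build of the sequences is GRCm38.p6, and because no build is named for the arrays, these positions are not those of probes. The windows lie at chr14:46390670-46390919 on the minus strand for *Bmp4*, at chr9:75775115-75775364 on the plus strand for *Bmp5*, and at chr14:34502547-34502796 on the minus strand for *Bmpr1a*.
Bmp4: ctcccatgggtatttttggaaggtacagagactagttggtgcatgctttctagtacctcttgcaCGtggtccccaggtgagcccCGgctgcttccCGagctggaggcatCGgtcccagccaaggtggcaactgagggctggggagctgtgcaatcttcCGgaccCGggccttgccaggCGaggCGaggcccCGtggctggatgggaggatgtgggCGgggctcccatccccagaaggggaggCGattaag
Bmp5: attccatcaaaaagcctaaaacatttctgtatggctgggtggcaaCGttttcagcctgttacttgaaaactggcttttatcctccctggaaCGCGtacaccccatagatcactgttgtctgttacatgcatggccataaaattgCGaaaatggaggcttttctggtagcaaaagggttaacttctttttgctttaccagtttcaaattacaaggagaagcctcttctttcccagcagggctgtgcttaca
Bmpr1a: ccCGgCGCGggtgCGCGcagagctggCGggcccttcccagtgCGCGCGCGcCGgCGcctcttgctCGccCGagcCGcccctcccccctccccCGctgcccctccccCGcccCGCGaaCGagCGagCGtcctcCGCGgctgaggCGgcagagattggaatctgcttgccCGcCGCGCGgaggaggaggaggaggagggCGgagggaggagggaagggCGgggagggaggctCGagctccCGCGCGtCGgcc

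The *Bmp4* window holds 11 CG dinucleotides, that of *Bmp5* holds 4, and that of *Bmpr1a* holds 36. The median over 32841 windows of the same length was 6. Windows were matched for 7 of the 10 genes, with 28 CG dinucleotides for *Chrd*, 22 for *Bmpr2*, 25 for *Smad1*, and 22, 27, and 27 for 3 start sites of *Smad5*. The letters GGCGCC, a motif known to bind BMP-responsive SMAD proteins, read the same on both strands and contain CG themselves. They were found in the windows of *Chrd*, *Bmpr1a*, and *Bmpr2* and in 1 of the 3 windows of *Smad5*, and in 9.59% of all windows. *Bmp2*, *Bmp7*, and *Nog* were not matched. A match of letters is a description of the sequence and says nothing of binding.

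The deposited value of a gene is a log2 signal averaged over its probes, with a detection p-value. For a gene with 1 probe this is the share of negative-control probes with a signal at least as high, and for a gene with several probes it is a value combined over them. A gene was called detected on an array where this p was under 0.01 and above background where that held on all 3 arrays. Detected symbols numbered 9015, 8220, and 7191 on the arrays of replicates 1, 2, and 3. Of the 10 BMP genes, 4 were above background, *Bmp4*, *Chrd*, *Nog*, and *Bmpr1a*, against a background share of 20.6% of all symbols (6357 of 30854). *Bmp5*, *Smad1*, and *Smad5* were detected on some arrays only, and *Bmp2*, *Bmp7*, and *Bmpr2* on none. Detection on at least 1 array was thus found for 7 of the 10, against 33.0% of all symbols. The background level of an array, the lowest signal of a detected symbol with 1 probe and a p above 0, was 6.69, 6.66, and 6.58 on replicates 1, 2, and 3 (mean 6.64 ± 0.05, SD, n = 3). Signals of different genes depend on how well their probes hybridize, so each BMP gene was set against this level. Values of single BMP genes were not compared with each other. Medians over lists of genes, given below, carry the same limit.

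**Figure D1:**
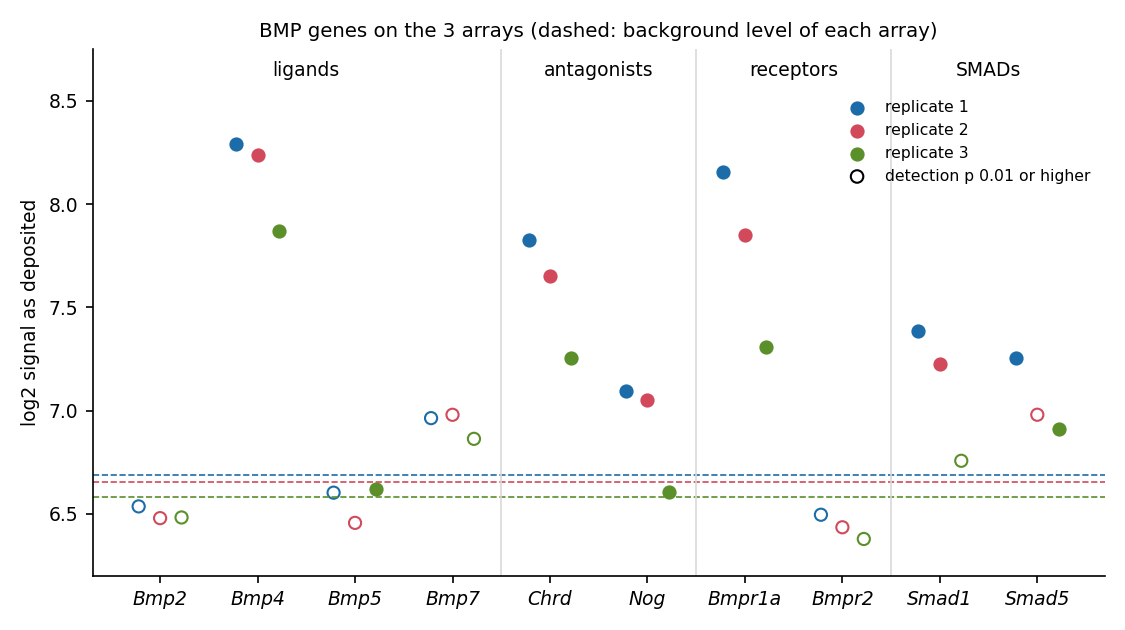
Deposited log2 signal (vertical axis) of the 10 BMP genes on each array, with filled points for a detection p under 0.01, open points for 0.01 or higher, and dashed lines at the background level of each array. *Bmp4*, *Chrd*, *Nog*, and *Bmpr1a* are filled on all 3 arrays, and the points of *Bmp2* and *Bmpr2* lie below every dashed line.

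Among the ligands, *Bmp4* was the only gene above background. BMP4 is known to be needed for mesoderm formation and for the induction of germ cells and the allantois. Its signals were 8.29, 8.24, and 7.87 on replicates 1, 2, and 3, with detection p-values of 0.00074, 4.62e-05, and 0.00452. All 3 arrays were far above their background levels, and replicate 3 was the lowest. The difference from background was 1.49 ± 0.18 (SD, n = 3) on the log2 scale of the deposited signals, or 2.81-fold. *Bmp4* has 2 probes, and the p-values of its 2 probes summed to 0.0385, 0.00962, and 0.0951, so on replicate 2 both probes were under 0.01, while on replicates 1 and 3 at least 1 probe was not.

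*Bmp7*, which encodes a ligand that can pair with BMP2 or BMP4, had a mean signal above background on every array and a detection call on none. Its signals were 6.96, 6.98, and 6.86, and its detection p-values were 0.221, 0.205, and 0.159. It also has 2 probes, whose p-values summed to 0.665, 0.641, and 0.563. A sum of that size requires at least 1 probe with a p well above 0.01, whereas the mean of both probes was 0.29 ± 0.03 (SD, n = 3) above background, so the higher probe must lie at or above that mean. The 3 arrays lay close together, and a value for each probe is not given in the table.

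*Bmp2* and *Bmp5* were not above background. *Bmp2*, which encodes a ligand required for heart and amnion development, had signals of 6.54, 6.48, and 6.48, all below the level of their arrays, with detection p-values of 0.335, 0.402, and 0.0919. *Bmp5*, which encodes a ligand of the same subgroup as BMP7, had signals of 6.60, 6.46, and 6.62. Its detection p-values were 0.0855, 0.503, and 0.00427, so replicate 3 alone passed the threshold and the call did not hold across replicates. Both genes have 1 probe, and a gene with a poorly hybridizing probe cannot be told apart from a gene with little RNA.

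Both antagonists were above background, and each was measured by 1 probe. *Chrd* had signals of 7.82, 7.65, and 7.25 on replicates 1, 2, and 3, with a detection p of 0 on every array, that is, above all negative controls. It was 0.94 ± 0.24 (SD, n = 3) above background on the deposited scale. *Nog* had signals of 7.10, 7.05, and 6.60, with detection p-values of 0, 0, and 0.00641. Replicate 3 was thus at the edge of detection for *Nog*, 0.02 above the background level of that array against 0.41 and 0.40 on replicates 1 and 2. In RNA from whole embryonic regions, fewer cells of a type and less RNA per cell cannot be told apart.

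Of the receptors, *Bmpr1a*, the type I receptor that BMP2 and BMP4 bind, was above background with a detection p of 0 on every array. Its signals were 8.15, 7.85, and 7.31, so replicate 1 was the highest and replicate 3 the lowest, and all exceeded their background levels. Its 2 probes had p-values that summed to 0 on all 3 arrays, so both probes were above every negative control. The mean difference from background was 1.13 ± 0.37 (SD, n = 3).

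*Bmpr2*, the type II receptor, was below background under its current symbol. The mean of its 3 probes was 6.50, 6.43, and 6.38, with detection p-values of 0.680, 0.751, and 0.534. A separate row carries the symbol 2610024H22Rik, which the RefSeq gene table lists as an older name of *Bmpr2* alone, and it gave the opposite picture. Its single probe had signals of 8.26, 8.12, and 7.48 and a detection p of 0 on every array, 1.31 ± 0.36 (SD, n = 3) above background. The 2 rows of the gene therefore disagree, and which part of the transcript each probe reads is not given in the table. With older symbols counted, a choice made after seeing the data, 5 of the 10 genes were above background, beside 20.6% of all symbols with each row counted under its own symbol.

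Of the receptor-activated SMAD genes, *Smad1* and *Smad5* each passed the threshold on 2 of 3 arrays. *Smad1*, with 4 probes, had signals of 7.39, 7.23, and 6.76, and its detection p-values were 0.00611, 0.00599, and 0.130, so replicate 3 did not pass. *Smad5*, with 2 probes, had signals of 7.26, 6.98, and 6.91. Its detection p-values were 2.05e-05, 0.0102, and 0.00356, and replicate 2 missed the threshold by a small margin. Every one of these 6 mean signals was above the background level of its array. A further row under *Madh1*, an older symbol of *Smad1*, was below background, with signals of 6.58, 6.50, and 6.39.

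*Bmp7*, *Smad1*, and *Smad5* were above background by their mean signal on every array but were not called by detection p, and all have more than 1 probe. By the mean signal, a rule added after seeing the data, 7 of the 10 genes were above background, against 26.3% of all symbols. For symbols with 1 probe the 2 rules gave the same 4569 symbols, and the background level is itself drawn from the detection calls of such symbols. Among all symbols whose mean signal was above background on every array, the call by detection p was missing for 46.2% of those with 2 probes (879 of 1903), for 56.8% with 3 probes, and for 64.7% with 4 probes.

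**Figure D2:**
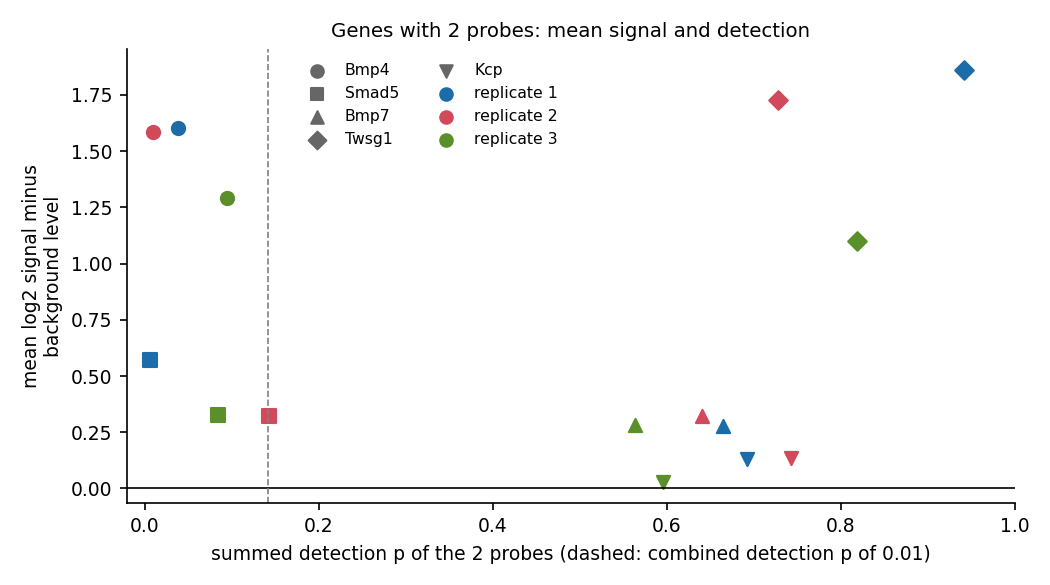
Mean log2 signal minus the background level of the array (vertical axis) against the summed detection p of both probes (horizontal axis) for 5 BMP pathway genes with 2 probes, with colours for the arrays. *Bmp7*, *Twsg1*, and *Kcp* lie above the background level at sums right of the dashed line, which marks a combined p of 0.01, whereas *Bmp4* lies left of it on all 3 arrays.

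To give each gene a level with an error, signals were corrected with the normexp background model, quantile normalized between arrays, and set against the background level of the same array. A one-sided limma test of this difference, with p-values adjusted over all 30854 symbols by Benjamini-Hochberg, called 7 of the 10 BMP genes, the same 7 as the mean signal, against 25.7% of all symbols. The level of *Bmp4* above background was 2.90, 2.96, and 2.70 on replicates 1, 2, and 3, a mean of 2.85 on the normalized log2 scale. The SD of this level over the 3 arrays was 0.13, and that of the deposited signal above background was 0.18. The adjusted p of *Bmp4* from limma was 3.2e-06 in a fit against the mean background level of the arrays. Its standard error there was 0.06, which limma draws partly from the spread of all symbols. That fit leaves out the spread of the background level between arrays. Without the normexp correction the level of *Bmp4* was 1.48, and the call held.

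The other genes called were set against background in the same way. Their levels are against the background level of each array, whereas the adjusted p-values are from the fit against the mean background level. These p-values therefore do not measure the spread of the levels beside them. *Chrd* was at 2.25, 2.12, and 1.72 above background (mean 2.03, adjusted p from limma 6.68e-06), and *Bmpr1a* at 2.72, 2.44, and 1.82 (mean 2.32, adjusted p from limma 5.07e-05). Both were lowest on replicate 3, and no array came near the background level. *Smad1* was at 1.53, 1.40, and 0.61 (mean 1.18, adjusted p from limma 0.00112), so its replicate 3 was well below the other 2 arrays. *Smad5* was at 1.30, 0.90, and 1.01 (mean 1.07, adjusted p from limma 0.000391) and *Bmp7* at 0.68, 0.89, and 0.90 (mean 0.82, adjusted p from limma 0.0043). Before the background level was subtracted, the SD of the normalized level was 0.31 for *Smad1*, 0.19 for *Smad5*, and 0.30 for *Bmp7*. The size of these levels depended on the normexp correction, without which they were 0.92 for *Chrd*, 1.11 for *Bmpr1a*, 0.46 for *Smad1*, 0.40 for *Smad5*, and 0.30 for *Bmp7*, with every call kept.

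The call of *Nog* depended on the normalization. Its levels were 0.97, 1.05, and 0.10, with a mean of 0.70 and an adjusted p from limma of 0.0135 against the mean background level. Against the background level of each array, the adjusted p from limma was 7.34e-06 with quantile normalization and 0.0936 with median scaling, where the call was lost at a level of 0.77. Without replicate 3 its level was 1.10, and without the normexp correction it was 0.25, with the call kept in both. *Bmp2* at -0.44, *Bmp5* at -0.19, and *Bmpr2* at -0.58 had mean levels below background in this test and under every alternative run on them. The row of *Bmpr2* under its older symbol 2610024H22Rik was at 2.60, with an adjusted p from limma of 2.16e-05 against the mean background level. *Bmp5* had the wider scatter, with -0.22 and -0.53 on replicates 1 and 2 and 0.17 on replicate 3.

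**Figure D3:**
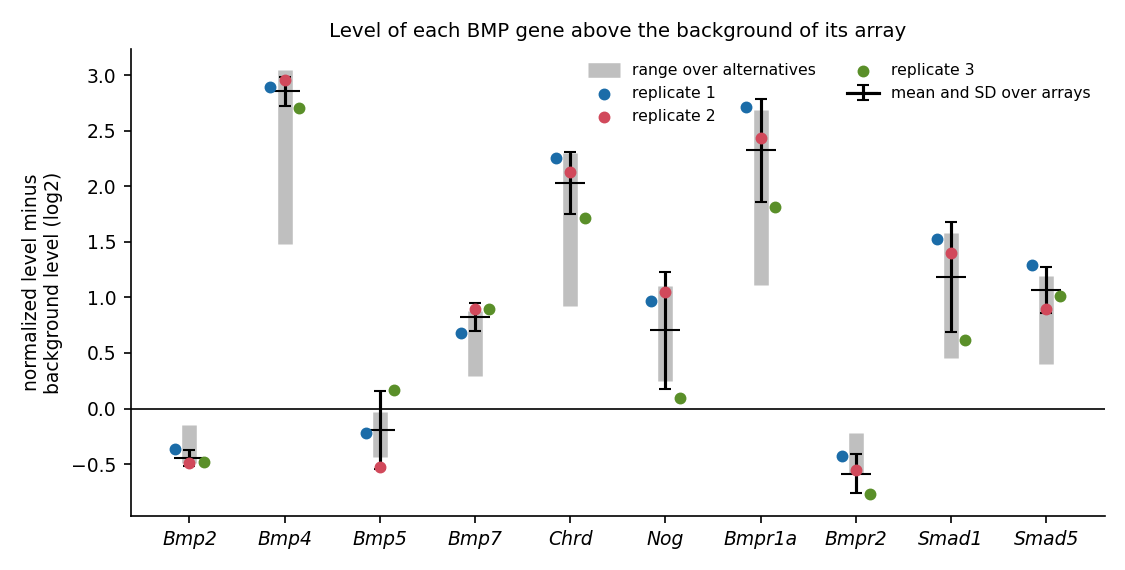
Normalized level minus the background level of the array (vertical axis, log2) for the 10 BMP genes, with points for the arrays, black bars for the mean and SD over 3 arrays, and grey bars for the range of the mean over the alternatives. *Bmp4*, *Chrd*, and *Bmpr1a* stay above 0.9 in every alternative, and *Bmp2* and *Bmpr2* below 0.

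Replicate 3 gave the lowest deposited signal for 8 of the 10 genes. The same held for 85.8% of all symbols and for 93.4% of the symbols above background, so the BMP genes share this with the array as a whole. The normalized level, before the background level was subtracted, was lowest on replicate 3 for 4 of the 10 genes, *Chrd*, *Nog*, *Bmpr1a*, and *Smad1*, against 35.6% of all symbols. Relative to the background level of the array, which was highest on replicate 3 after normalization, *Bmp4* and *Bmpr2* were lowest there as well. Before that subtraction both were highest on replicate 3, and the share of all symbols lowest there after it was not computed. The part of array quality in their values was not tested.

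Other genes of the pathway were taken from a list of 52, of which 49 are in the table and *Gdf7*, *Smad4*, and *Smurf2* were not analysed here. *Hjv* and *Kcp* were read from rows under the symbols *Hfe2* and *Crim2*, and neither was detected on any array. Of the 49 genes, 11 (22.4%) were above background on all 3 arrays, close to the 20.6% of all symbols. The median of their mean signals was -0.16 relative to background on the log2 scale, against -0.15 over all symbols and 0.35 over the 10 BMP genes. None of the other 10 ligands, *Bmp3*, *Bmp6*, *Bmp8a*, *Bmp8b*, *Bmp10*, *Bmp15*, *Gdf2*, *Gdf3*, *Gdf5*, and *Gdf6*, was detected on any array. With *Bmp4*, 1 of 14 measured ligands was thus above background by detection p, and the limma test called *Bmp7* as well.

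Of the other receptors, 2 of 5 were above background, beside 20.6% of all symbols. *Acvr2b*, a type II receptor that activins and Nodal share with BMPs, had signals of 11.59, 11.22, and 11.26, which was 4.72 ± 0.17 (SD, n = 3) above background. *Acvr1*, a type I receptor for BMP7 and related ligands, had signals of 7.67, 7.47, and 7.27. Both had a detection call on every array with 1 probe each. *Bmpr1b*, *Acvr2a*, and *Acvrl1* were not detected on any array. Among co-receptors, 1 of 5 was above background (20%, beside 20.6% of all symbols). This was *Rgma* at 8.38, 7.83, and 7.29, and *Rgmb*, *Hjv*, *Eng*, and *Bambi* were not.

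Of the other antagonists, 3 of 13 were above background (23.1%, beside 20.6% of all symbols), *Fst*, *Fstl1*, and *Cer1*. Of the chordin modulators and proteases, 1 of 6 was (16.7%), *Bmper*. Both shares were near that of all symbols. *Fst* encodes follistatin, which binds activins and some BMPs, and its signals were 9.30, 8.65, and 8.36. *Fstl1*, a secreted follistatin-like protein, was at 8.01, 7.80, and 7.39, whereas a row under its older symbol *Fstl*, at 6.65, 6.63, and 6.59, was detected on replicate 3 only. *Cer1* encodes Cerberus, which binds Nodal and BMPs, and its signals of 6.95, 6.68, and 6.56 reached the background level on replicates 1 and 2 only, although its combined detection p was under 0.01 on all 3. *Bmper*, a secreted protein with chordin-like domains, was at 7.20, 6.89, and 6.82. *Grem1* and *Nbl1* were detected on 1 array each, and *Fstl3*, *Dand5*, *Sost*, *Sostdc1*, *Chrdl1*, *Chrdl2*, and *Kcp* on none.

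*Twsg1*, which encodes a cofactor of chordin, showed the same mismatch as *Bmp7* and was chosen for this after its values were seen. Its signals of 8.55, 8.38, and 7.68 were 1.56 ± 0.41 (SD, n = 3) above background, yet its detection p-values were 0.443, 0.265, and 0.335. Its 2 probes had p-values that summed to 0.941, 0.728, and 0.818. *Bmp1*, a protease that cleaves chordin, was detected on 2 of 3 arrays, *Crim1* on 1, and *Tll1* and *Tll2* on none.

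**Figure D4:**
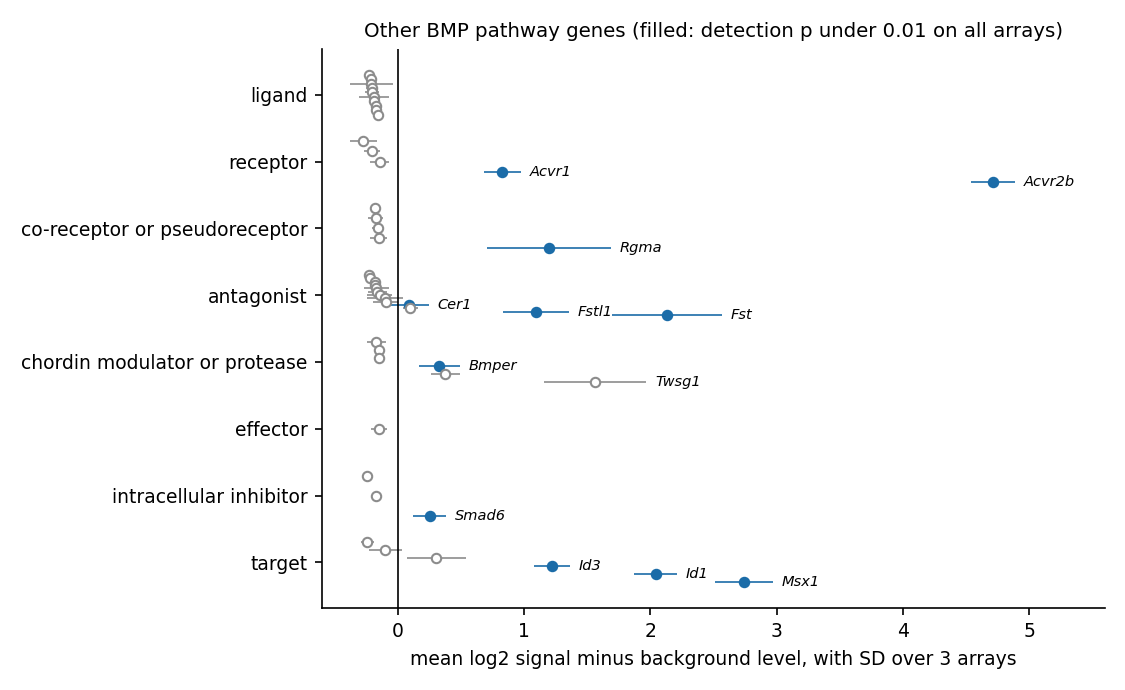
Mean log2 signal minus the background level (horizontal axis, with SD over 3 arrays) of the other 49 BMP pathway genes, grouped by role, with filled points for a detection p under 0.01 on all arrays. The 10 further ligands cluster below 0, and *Acvr2b* lies at 4.72.

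Inside the cell, 1 of 3 measured inhibitor genes was above background (33.3%, beside 20.6% of all symbols). This was *Smad6*, an inhibitory SMAD that BMP signaling induces, at 7.05, 6.95, and 6.69. *Smad7*, *Smurf1*, and the effector *Smad9* were not detected on any array. Of the 6 target genes, 3 were above background, beside 20.6% of all symbols, and so few genes allow no statement about BMP targets as a group. The inhibitor of differentiation genes *Id1* and *Id3* had signals of 8.85, 8.77, and 8.43 and of 8.03, 7.92, and 7.64, respectively, from 1 probe each. *Msx1*, a homeobox gene downstream of BMPs in many tissues, was at 9.53, 9.56, and 9.06. *Id2* was detected on 2 arrays under its current symbol and on all 3 under *Idb2*, an older symbol, with signals of 8.38, 8.14, and 7.71. *Id4* was detected on 1 array and *Msx2* on none.

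Marker genes were read beside these values because ligands and antagonists are made in different tissues. The gene of highest mean signal is named for each list, although the order of signals within a list also depends on the probes. The embryonic region was represented by all 6 genes of the primitive streak and mesoderm list, beside 20.6% of all symbols. Among these 6 genes *Wnt3a* had the highest mean signal, 9.64 ± 0.41 (SD, n = 3). The mean signal of *Mixl1* was just below the background level on replicate 3, at -0.02, although its detection p passed there. In the node and notochord list 2 of 5 genes were above background (40%, beside 20.6% of all symbols), *T* at 10.17 ± 0.61 (SD, n = 3) and *Shh*. In the epiblast and neural plate list 3 of 6 were (50%, beside 20.6% of all symbols), led by *Otx2* at 9.46 ± 0.21 (SD, n = 3). *Hesx1* was detected on no array. In the heart field list 2 of 5 were (40%, beside 20.6% of all symbols), led by *Isl1* at 9.09 ± 0.19 (SD, n = 3). *Tbx5* and *Hand2* were detected on no array.

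Extraembryonic tissues, in which BMP ligands are also made, were read the same way. In the extraembryonic ectoderm list 4 of 10 genes (40%) were above background, beside 20.6% of all symbols. They were led by *Cdx2* at 9.53 ± 0.39 (SD, n = 3), which the posterior part of the embryo also expresses. The others above background were *Rhox5* at 9.81, 9.92, and 8.43, *Ets2* at 9.04, 8.83, and 8.12, and *Tfap2c* at 7.91, 7.75, and 7.37. *Elf5*, *Eomes*, *Ascl2*, *Gcm1*, and *Wnt7b* were detected on no array. In the list for allantois and extraembryonic mesoderm, 2 of 6 were above background (33.3%, beside 20.6% of all symbols). They were led by *Tal1* at 7.11 ± 0.11 (SD, n = 3), and *Vcam1* was detected on no array. In the visceral endoderm list 13 of 14 were (92.9%, beside 20.6% of all symbols), led by *Spink3* at 11.45 ± 0.98 (SD, n = 3). *Afp* was called on replicates 1 and 2 only. The study reports that descendants of visceral endoderm cells lie scattered in the gut endoderm of the embryonic region at this stage. It also proposes that these cells lower their visceral endoderm markers. The part of leftover extraembryonic tissue in these marker signals was not tested.

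The marker sums varied between arrays. Each sum holds only those genes of the list that lay above the background level on that array. Genes below that level added nothing, so the genes summed can differ between arrays. On the linear scale after normalization, *Bmp4* was 165, 189.6, and 185 intensity units above background on replicates 1, 2, and 3. The extraembryonic ectoderm list summed to 1757, 1902, and 1269 units, and the visceral endoderm list to 11362, 13958, and 8515. Both of these sums were lowest on replicate 3, as was that for allantois and extraembryonic mesoderm at 70.6, 117, and 59.1. The heart field list, at 444, 459, and 558, and the epiblast and neural plate list, at 867, 834, and 973, were highest on replicate 3. Most of the heart field sum came from *Isl1*, at 418, 418, and 506 units. Most of the epiblast and neural plate sum came from *Otx2*, at 585, 541, and 701. The primitive streak and mesoderm list, at 1814, 1224, and 1485, was lowest on replicate 2. Genes within a list differed in this, as *Spink3* and *Ttr* were lowest on replicate 3 but *Apoa1* on replicate 1, *Tal1* was highest on replicate 3, and *Otx2* was highest but *Pou5f1* and *Sox2* lowest there, examples chosen after their values were seen. *Bmp4* on replicate 3 lay between the other arrays on this linear scale and was lowest of the arrays both in the deposited signals and in the normalized log2 level above background. The part of extraembryonic tissue in the *Bmp4* signal was not tested. *Nog* was at 24.5, 29.8, and 2.32 units and *Chrd* at 96.6, 94.0, and 76.7, and both were lowest on replicate 3. The node and notochord list summed to 1429, 1107, and 985. Within it *T*, which also marks the primitive streak, was at 1345, 985, and 875 and *Shh* at 80.8, 122, and 110.1, so *T* was lowest on replicate 3 and *Shh* on replicate 1. The part of tissue content in the *Nog* and *Chrd* values was not tested.

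**Figure D5:**
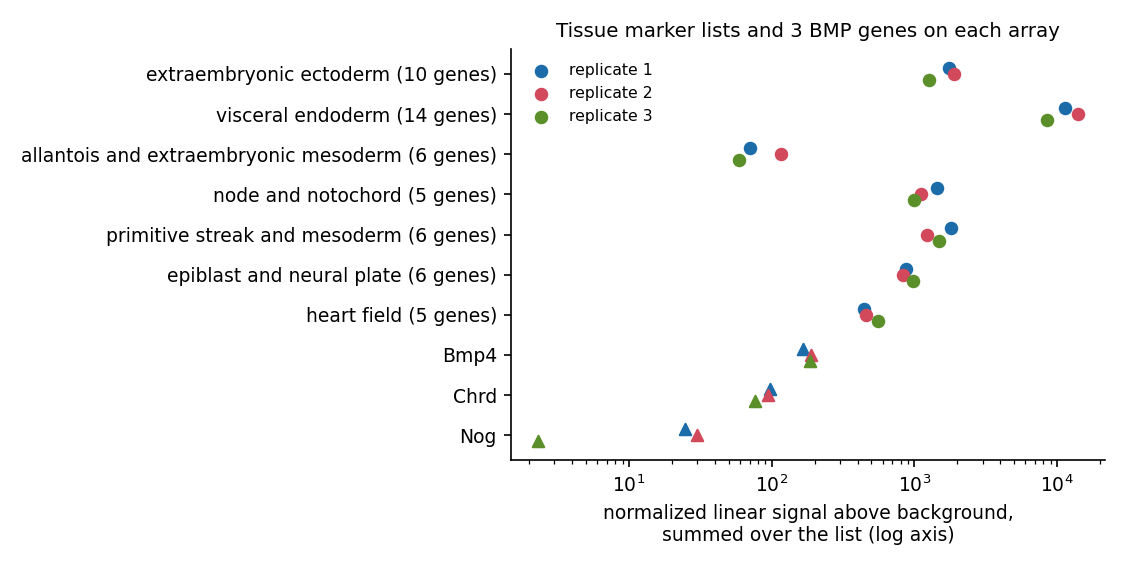
Normalized linear signal above background on each array, on a log axis, for 7 marker lists (circles) and for *Bmp4*, *Chrd*, and *Nog* (triangles). Each circle sums only the genes of its list that lay above the background level on that array. *Nog* on replicate 3, at 2.32 units, lies apart from 24.5 and 29.8 on the other arrays, and *Bmp4* stays between 165 and 189.6.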

How the data were processed

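Total RNA was measured on 3 arrays of a single group, and the labels give each its replicate number. The authors deposited, per gene symbol, a log2 signal averaged over probes and not normalized between arrays, the mean number of beads, a standard error over beads in linear intensity units, and a detection p-value. Partek is the tool named in the submitters' processing notes, and how it combined probes is not given in the sources used here. All columns were matched to a sample.

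Detection p-values lay on steps of 1 in 936, and a symbol was taken to have the smallest number of probes that made its bead numbers whole and, up to 3 probes, its p-values lie on the steps of a sum. This gave 1 probe for 21977 symbols, several for 8875, and no number for 2. Sums of p-values were on the steps in 97.7% of values for 2 probes and 99.8% for 3. The number of probes remains inferred and is a lower limit. On every array, the symbols with 1 probe that lacked a detection call all had signals below the background level. Whether the detection p followed the order of signals away from that level was not tested.

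Tests planned for probes were run on symbols, which are the rows of the table. Intensities were corrected with normexp, fitted through the detection p-values of 1-probe symbols (offset 16), quantile normalized, set to log2, and tested against the background level with limma 3.58.1 in R 4.3.3 (lmFit, eBayes, one-sided, adjusted p under 0.05). The background levels after normalization were 4.68, 4.81, and 5.06, and this shared shift gave every symbol the same standard error, 0.15. Unless stated otherwise, printed standard errors and adjusted p-values therefore come from the alternative fit against the mean background level, which called 7958 symbols. Tables and plots were made in Python 3.11.15 with numpy 2.4.6, pandas 2.3.3, and matplotlib 3.10.9.

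The genes, lists, and tests were chosen with earlier results of these data known. All 10 BMP genes are named. Of the other pathway genes, those above background are given with values and the rest by name, except an item that is not reported here, and of each marker list the most abundant gene and those detected on no array. Rows under older symbols were found through the NCBI RefSeq gene table (GRCm38.p6). Alternatives were other detection thresholds and numbers of arrays, the limma test, other corrections, normalizations, and offsets, a filter on detection, and leaving out each replicate. The mean-signal rule and the counting of older symbols were added after seeing the data. The number of arrays limits the precision of every level.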

Additional observations from a re-analysis of the deposited data

How the results depend on the processing

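Of the 10 BMP genes, 4 were above background by detection p on all arrays, and this count was 5 with a threshold of 0.05 (7610 of all 30854 symbols), 6 with detection on at least 2 arrays (7897 of all symbols), and 4 to 5 when each replicate was left out. It moved to 7 with detection on at least 1 array (33.0% of all symbols passed that rule), to 7 with the limma test (25.7%), and to 7 with the mean signal above the background level (26.3%), and the original 4 were among the genes called in each case. For the other pathway genes, detection on at least 1 array moved the count from 11 to 18, and the remaining alternatives gave 11 to 14. For all symbols the same choice moved the count from 6357 to 10172, and leaving out each replicate gave 6524 to 7427. Marker genes above background numbered 32 over lists of 10, 14, 6, 5, 6, 6, and 5 genes, beside 20.6% of all symbols. This count was 32 to 35 when each replicate was left out, and up to 43 with detection on at least 1 array. The limma test called 7 BMP genes in each fit except those with median scaling, which called 6 and lost *Nog* (level 0.77, adjusted p from limma 0.0936), and with a filter on detection, which called 6 because *Bmp7* was then not tested. Over all alternatives 76 of 77 single-gene values kept their direction and their side of the threshold. Without the normexp correction the levels were the lowest of all alternatives for these 7 genes. The levels stayed between 1.48 and 3.04 for *Bmp4*, 0.92 and 2.30 for *Chrd*, 1.11 and 2.69 for *Bmpr1a*, 0.46 and 1.58 for *Smad1*, 0.40 and 1.19 for *Smad5*, 0.30 and 0.87 for *Bmp7*, and 0.25 and 1.10 for *Nog*. No paired analysis was possible because the arrays form a single group. Levels near background rest on 3 arrays of unequal background, and probes of a gene cannot be separated.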
